A study of Rattus norvegicus with 24 samples.

Results

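The early response to IRE1α induction was measured in INS1 cells, a rat insulinoma line that serves as a stand-in for pancreatic beta cells. The comparison set 3 libraries of cells induced with doxycycline for 4 h and given vehicle against 3 libraries of uninduced cells given vehicle, which makes 6 of the 24 libraries in the series. All cells, the uninduced ones included, carry a doxycycline-inducible mouse IRE1α (Ern1) transgene, and the labels do not say whether the line is 1 clone. The uninduced cells received neither doxycycline nor a kinase modulator. The same groups at 24 h, and induced cells given PAIR1 or KIRA9, 2 small molecules that act on the IRE1α kinase, were used to follow the changed genes further, with 3 libraries in each group. The libraries were taken by the time in their titles and column names. In the induced vehicle libraries of both times, 6 in all, the separate time label contradicts the title.

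IRE1α is a sensor of unfolded protein in the endoplasmic reticulum with a kinase and an RNase domain on its cytosolic side. Its RNase excises an intron from the Xbp1 mRNA, which then encodes a transcription factor for folding and secretory genes, and when IRE1α is strongly activated it also cleaves other mRNAs at the endoplasmic reticulum. Beta cells make large amounts of proinsulin and depend on this system.

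The table identifies genes by Ensembl ID alone. Of its 26689 IDs, 0 were found in the RefSeq gene table that gives symbols, so the level of the induced gene itself, the splicing target Xbp1, beta cell markers and markers of other cell types were not analysed here by name, and no sequence is shown. The labelled cell type and the induction were therefore not checked against their defining genes. The changed genes are described by their levels, and 2 IDs in each direction are printed. Totals of the 6 libraries ran from 14.9 to 20.7 M counts, and levels are given in CPM (reads per 1 M). A gene without a read could still be present at up to 3 counts, or 0.145 to 0.201 CPM depending on the library, a limit for counting error only. The 10 most abundant IDs took 8.30 to 8.63% of the counts in each of the 6.

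At 4 h few IDs had changed, and nearly all of those that had were lower. Of 13760 IDs tested, 36 fell (0.262%) and 5 rose (0.0363%), 0.298% in all, at an adjusted p below 0.05 in edgeR's quasi-likelihood test with Benjamini-Hochberg adjustment. The median fall was -0.36 on the log2 scale, a change of -22.1%, beside a median of 0.00 over all IDs tested. For each of the 36 the 3 induced libraries lay below the 3 uninduced ones, as they did for 5.99% of all IDs. For each of the 5 they lay above them, as they did for 5.60% of all IDs. The same libraries had chosen these IDs, which favours such a separation. In bulk RNA, fewer transcripts per cell and fewer cells that express a gene cannot be told apart. Because the uninduced cells had no doxycycline, effects of doxycycline and of the transgene cannot be told apart either.

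**Figure D1:**
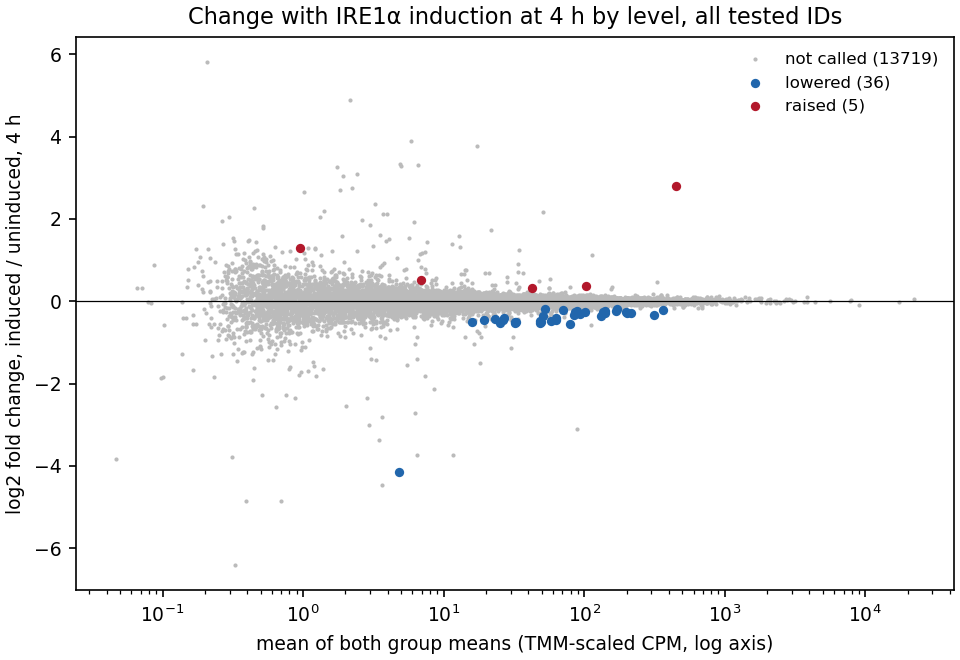
Log2 fold change with induction at 4 h (vertical) against level in TMM-scaled CPM (horizontal, log axis), 1 point for each of 13760 IDs. Of the 36 lowered IDs, 35 form a narrow band just below 0 and ENSRNOG00000047573 lies far below it at -4.15, and the raised ID that stands apart at the top right is ENSRNOG00000012864, at a log2 change of 2.79.

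One rise stood far above the rest. ENSRNOG00000012864 had 115, 116 and 108 CPM in the uninduced libraries and 812, 798 and 745 CPM in the induced ones. All 3 induced libraries were high and close to each other. The means were 113 ± 4.7 and 785 ± 35 CPM (SD, n = 3), a 6.93-fold rise, or a log2 change of 2.79 ± 0.05 (SE) with an adjusted p of 1.5e-20 in edgeR. ENSRNOG00000019434 was far less abundant and rose by less, with 5.43, 4.90 and 6.66 CPM in uninduced and 7.71, 8.42 and 8.19 CPM in induced libraries. The groups did not overlap, which the rule for printing an ID required. The log2 change was 0.52 ± 0.11 (SE, adjusted p = 0.035 in edgeR). This call was lost in 11 of 15 alternative analyses, for example when uninduced replicate 2 was left out (adjusted p = 0.30) and with DESeq2 (adjusted p = 0.083).

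Of the other 3 raised IDs, 2 were well expressed and rose by small amounts. The first of them went from 90.4 ± 1.7 to 116 ± 2.1 CPM (log2 change 0.36 ± 0.04 SE, adjusted p = 4.3e-05 in edgeR). The second went from 37.9 ± 2.5 to 47.6 ± 2.4 CPM (log2 change 0.33 ± 0.05, adjusted p = 0.0023). The remaining ID was barely expressed, at 0.549 ± 0.073 CPM without and 1.36 ± 0.07 CPM with induction, and had the second largest rise in log2 units, 1.28 ± 0.25 (adjusted p = 0.016). The count of raised IDs was 3 without uninduced replicate 1 and 3 without induced replicate 1.

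**Figure D2:**
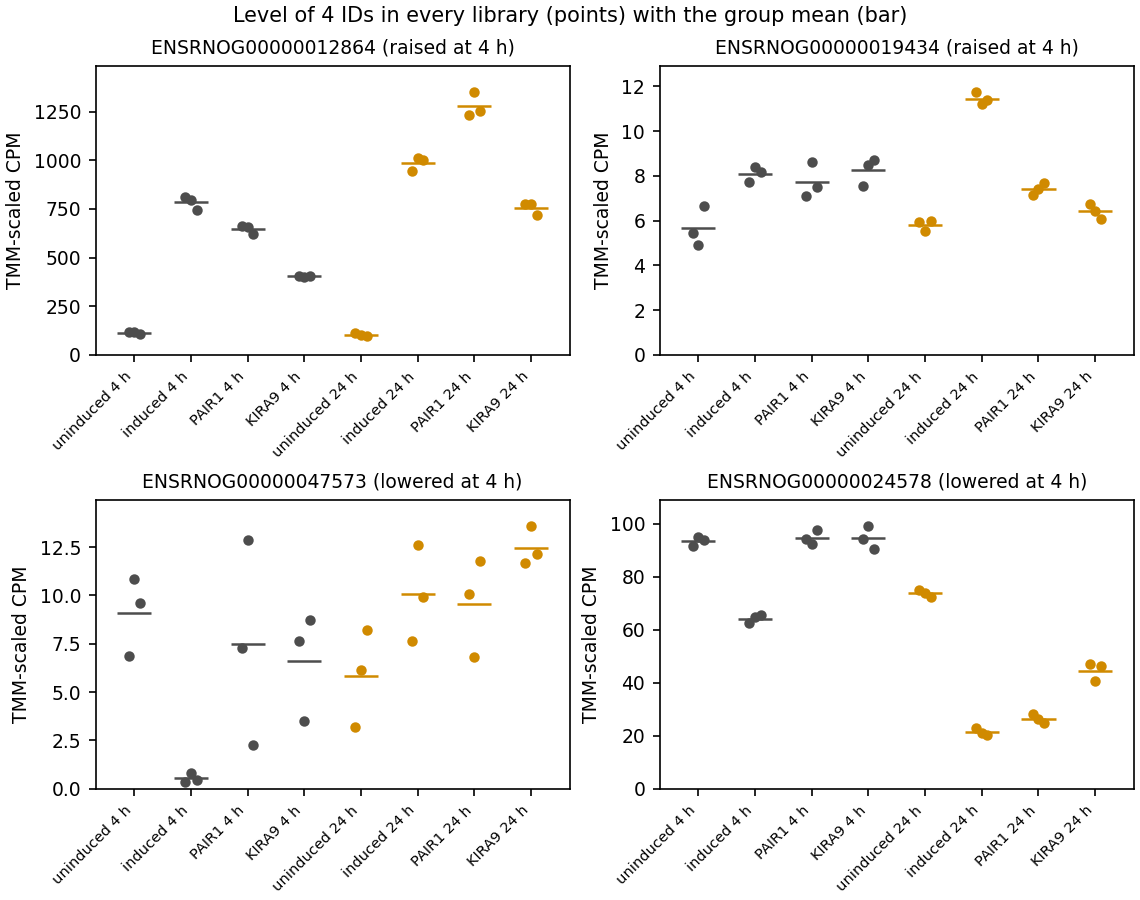
TMM-scaled CPM of the 4 printed IDs (vertical, from 0) in all 24 libraries, by treatment and time, with the group mean as a bar. ENSRNOG00000012864 is high in all induced groups, ENSRNOG00000024578 falls at 4 h and further at 24 h, and ENSRNOG00000047573 is scattered in most groups and lowest in the induced 4 h libraries.

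Among the lowered IDs, 35 changed by between -12.7% and -31.4% of their uninduced level. Their log2 changes ran from -0.20 to -0.54, with standard errors of 0.03 to 0.10. ENSRNOG00000024578 fell the furthest of these: it had 91.5, 94.95 and 94.1 CPM in uninduced libraries and 62.5, 64.6 and 65.4 CPM in induced ones. The spread inside each group was small beside the distance between them, and the log2 change was -0.54 ± 0.05 (SE), with an adjusted p of 4.0e-06 in edgeR. The 35 IDs were spread over moderately to highly expressed genes, from 18.7 to 391 CPM in uninduced cells. The median level of all 36 was 73.9 CPM, beside 25.9 CPM over all IDs tested. The median standard error was 0.25 at 1 to 5 CPM and 0.05 at 50 to 200 CPM. Small falls could thus be called mainly at higher levels, and the level need not be a trait of the lowered genes.

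The deepest fall was of another kind. ENSRNOG00000047573 had 6.87, 10.9 and 9.59 CPM in uninduced and 0.344, 0.808 and 0.418 CPM in induced libraries, from 143, 162 and 144 reads to 7, 12 and 7. The log2 change was -4.15 ± 0.57 (SE) with an adjusted p of 0.00032 in edgeR. Its level was uneven within other groups, from 2.25 to 12.9 CPM among the 3 PAIR1 libraries at 4 h and from 3.52 to 8.72 CPM among the 3 KIRA9 libraries. At 24 h it stood at 5.84 ± 2.53 CPM without and 10.1 ± 2.5 CPM with induction, which was not called (log2 change 0.79 ± 0.42, adjusted p = 0.11). How reads of near-identical genes were counted is not stated by the labels. Whether part of the reads of this ID come from a related gene was not tested.

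Summed over the 36 lowered IDs, the level was 3815, 3859 and 3819 CPM in the uninduced libraries and 3038, 3093 and 3124 CPM in the induced ones. The sum went from 3831 ± 24 to 3085 ± 44 CPM (SD, n = 3), a change of -19.5%. This sum describes IDs that the same libraries chose, so no test is given for it.

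**Figure D3:**
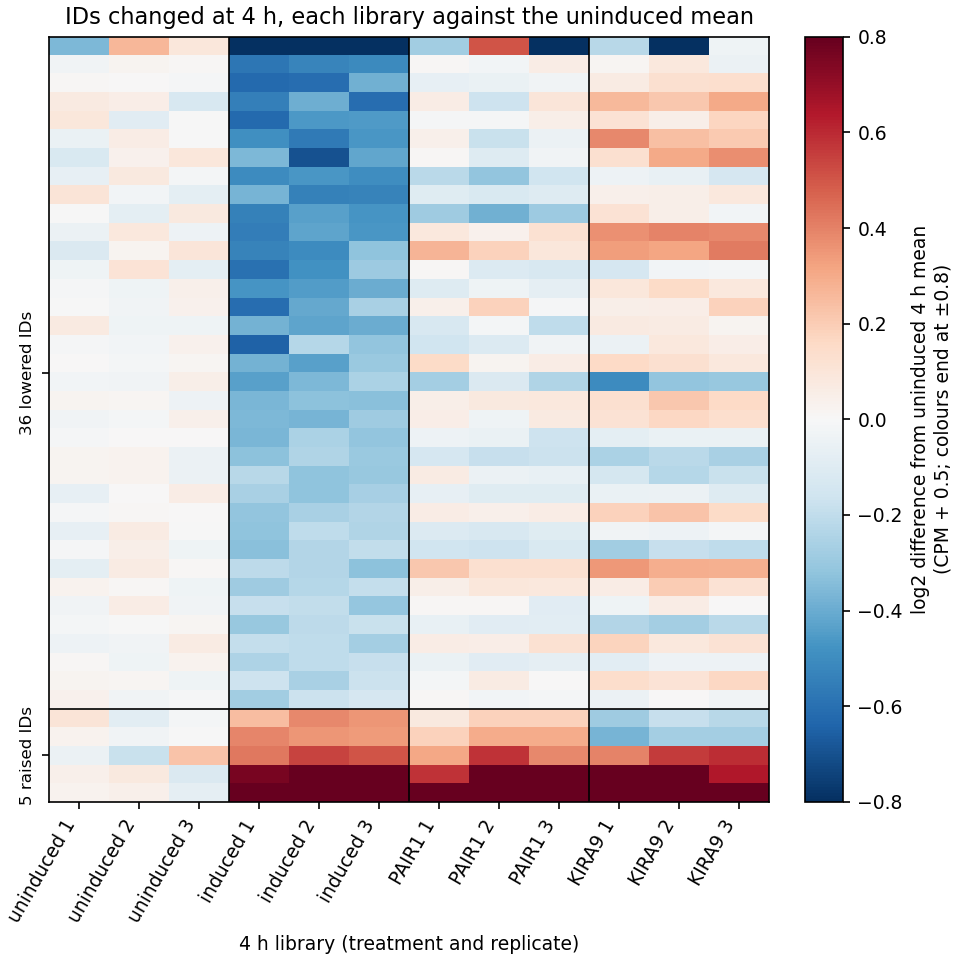
Log2 difference of each of the 41 changed IDs (rows, ordered by fold change) from the uninduced 4 h mean, in the 12 libraries at 4 h (columns). Rows of the 36 lowered IDs are blue in the 3 induced libraries and mostly near white in the PAIR1 libraries, while a number of them turn red with KIRA9.

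The reach of the comparison depended on level. Between 50 and 200 CPM the median standard error of a fold change was 0.05 on the log2 scale and 0.555% of 3602 IDs were called. Between 20 and 50 CPM these values were 0.07 and 0.357% of 3080 IDs. Between 1 and 5 CPM they were 0.25 and 0.0513% of 1948 IDs, so that falls of the size seen in the 35 IDs were mostly not detectable there. The 95% interval of the change lay within 1.5-fold either way for 10942 IDs (79.5%) and within 2-fold for 12327 (89.6%). Among the 100 most abundant IDs, fold changes ran from -0.09 to 0.12 on the log2 scale and for 97 of them the interval lay within 1.2-fold. Of these 100, edgeR called 0 and DESeq2 called 0, with 8 at an unadjusted p below 0.05 in each tool.

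Without adjustment the counts were close in both directions. At an unadjusted p below 0.05, the called IDs included, 424 IDs (3.08%) were lower and 409 (2.97%) were higher, 6.05% of those tested. Without any change, a share of about 0.05 of the IDs would be expected to pass, in either direction. These counts therefore do not show a broad response. Just short of the threshold, between adjusted p-values of 0.05 and 0.1, there were 17 lower and 7 higher IDs. Of the 17, 15 were called lower at 24 h, where 32% of all IDs were, and of the 7, 2 were called higher, a share near the 29.8% of all IDs.

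The 24 h libraries, which share none with the 4 h comparison, show how the early changes went on. Of the 36 IDs lowered at 4 h, 35 were called lower at 24 h, where 32% of all IDs were. The exception was ENSRNOG00000047573. The other 35, set apart after their 24 h values were seen, had a median log2 change of -1.87 at 24 h, with a range of -0.92 to -3.38, against a median of -0.35 at 4 h. At least 2-fold falls at 24 h were found in 33 of the 35 and in 1257 of all 13760 IDs (9.14%), and at least 4-fold falls in 12 of the 35 and in 215 of all (1.56%). Of the 36, 33 were among the 10% of IDs with the deepest falls at 24 h, and 9 were among the deepest 1% (percentile by fold change). ENSRNOG00000024578 was at 73.7 ± 1.4 CPM in uninduced and 21.3 ± 1.4 CPM in induced cells at 24 h (log2 change -1.79 ± 0.06 SE, adjusted p = 7.5e-18 in edgeR).

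**Figure D4:**
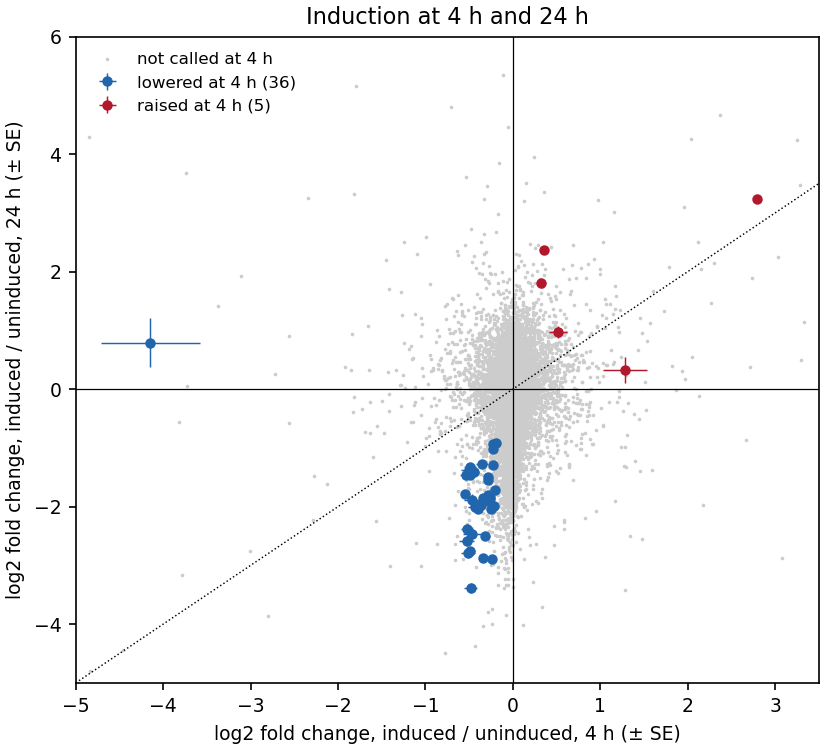
Log2 fold change with induction at 24 h (vertical) against that at 4 h (horizontal), bars ± SE for the 41 IDs changed at 4 h, with all other IDs in grey and a dotted line where both times are equal. Of the 36 lowered IDs, 35 lie below the dotted line at the lower left, and 7 IDs that were not called at 4 h lie outside the axes.

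Among the 35 IDs, depth of fall at 4 h was only loosely related to depth at 24 h. Across these IDs, which are not independent replicates, Pearson's r between both log2 changes was 0.32 and Spearman's rho 0.27. The choice of IDs at 4 h left a narrow range of changes there, from -0.20 to -0.54, which can lower both values. The 24 h change was 5.30 times the 4 h change at the median, from 2.68 to 12.2 times, in log2 units. The change at 24 h was more negative than at 4 h for all 35 when the difference was tested in the same model (27.8% of all IDs were called in that direction). The 4 h libraries that enter this difference had also chosen the IDs.

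Of the 5 raised IDs, 4 were called higher at 24 h, and the change of 4 was also more positive than at 4 h when the difference was tested (22.5% of all IDs were). At 24 h itself 29.8% of all IDs were called higher. ENSRNOG00000012864 reached 985 ± 35 CPM from 104 ± 7.6 CPM (log2 change 3.24 ± 0.05 SE), so that most of its rise was in place at 4 h. ENSRNOG00000019434 went from 5.81 ± 0.25 to 11.4 ± 0.3 CPM (log2 change 0.98 ± 0.11, adjusted p = 3.5e-08 in edgeR). The pair of well-expressed IDs with small rises at 4 h gained far more at 24 h, from 65.9 ± 2.7 to 342 ± 11 CPM and from 31.2 ± 0.9 to 109 ± 2.4 CPM. The barely expressed ID was at 1.41 ± 0.22 and 1.77 ± 0.25 CPM and was not called (adjusted p = 0.21).

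Read from the other side, the IDs that induction lowered most at 24 h leaned down at 4 h, by little. Of the 215 IDs at least 4-fold lower at 24 h, 80.5% had a negative change at 4 h, against 49.0% of all IDs tested, with a median of -0.10 on the log2 scale, a change of -6.45%. Of the 1257 at least 2-fold lower, 69.8% were negative at 4 h, with a median of -0.05. Of all 4401 IDs called lower at 24 h, 57.3% were negative at 4 h. The lean was similar over all 4102 IDs called higher, of which 59.6% were positive at 4 h, against 51.0% of all IDs. On this side it did not grow with the size of the rise. Of the 387 at least 2-fold higher, 57.6% were positive at 4 h, and of the 63 at least 4-fold higher, 54.0% were. The sets with at least 4-fold changes differed in level. Their median in uninduced cells at 4 h was 32.0 CPM for the 215 and 0.677 CPM for the 63, where a change at 4 h is hard to detect. Of the 215, 12 were called lower at 4 h (0.262% of all IDs were), and of the 63, 2 were called higher (0.0363% of all IDs).

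The level of the lowered IDs was also read in induced cells that received a kinase modulator for the same 4 h. These comparisons share the induced or the uninduced libraries with the one that chose the IDs, and the doses are not stated in the labels. Of the 36 IDs, 29 were higher with PAIR1 than with vehicle (2.31% of all IDs were) and 31 were higher with KIRA9 (6.01%). All 3 PAIR1 libraries lay above all 3 induced vehicle libraries for 35 of the 36 (10.4% of all IDs), and all 3 KIRA9 libraries did for 31 (14% of all IDs). The IDs had been chosen for low values in these induced libraries, which favours such a separation. Their summed level was 3766 ± 34 CPM with PAIR1 and 3916 ± 29 CPM with KIRA9 (SD, n = 3), beside 3831 ± 24 CPM in uninduced cells. The count for PAIR1 was 19 of 26 lowered IDs without induced replicate 2. Both counts, 13 and 16, were lower when induced replicate 3 and uninduced replicate 2 were left out together, with 18 IDs then lowered. Shares of all IDs were not computed for these settings.

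Against uninduced cells, 33 of the 36 were not called with PAIR1, 0 were higher (1.56% of all IDs were) and 3 were lower (0.988%). Most of all IDs were not called in this comparison either, so the missing calls alone do not show a return to the uninduced level. The differences ran from -0.32 to 0.19 on the log2 scale with a median of -0.05. With KIRA9 22 were not called, 10 were higher (5.44% of all IDs) and 4 were lower (5.49%), with differences from -0.45 to 0.38 and a median of 0.05. ENSRNOG00000024578 stood at 94.7 ± 2.7 CPM with PAIR1 and 94.7 ± 4.3 CPM with KIRA9, beside 93.5 ± 1.8 CPM in uninduced cells. The 95% intervals of its differences from uninduced cells were -0.09 to 0.13 for both on the log2 scale.

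The raised IDs differed among themselves. Of the 5, 1 was lower with PAIR1 than with vehicle (0.887% of all IDs were) and 3 were lower with KIRA9 (5.66%). ENSRNOG00000012864 was at 647 ± 21 CPM with PAIR1 and 403 ± 1.4 CPM with KIRA9, still 2.51 ± 0.05 and 1.83 ± 0.05 (SE) log2 units above uninduced cells. ENSRNOG00000019434 stayed at 7.74 ± 0.80 and 8.26 ± 0.62 CPM, near the 8.10 ± 0.36 CPM of induced vehicle cells. The pair of well-expressed IDs with small rises went below the uninduced level with KIRA9, to 73.0 ± 2.9 and 32.1 ± 1.1 CPM, with log2 changes from uninduced cells of -0.31 ± 0.04 (adjusted p = 1.7e-05 in edgeR) and -0.24 ± 0.05 (adjusted p = 0.0048). With PAIR1 they were at 109 ± 4.8 and 41.9 ± 1.8 CPM.

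At 24 h the same 36 IDs summed to 4014 ± 79 CPM in uninduced, 1159 ± 25 in induced, 1546 ± 33 in PAIR1 and 2629 ± 38 CPM in KIRA9 libraries (SD, n = 3). The groups at 24 h did not overlap, and the PAIR1 libraries lay closer to the induced than to the uninduced ones, unlike at 4 h.

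**Figure D5:**
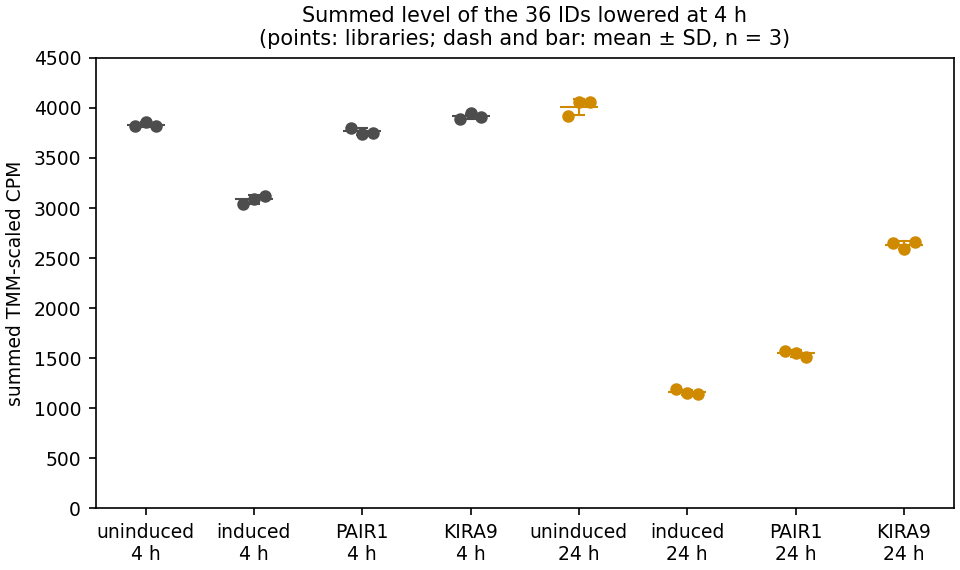
Summed TMM-scaled CPM of the 36 lowered IDs (vertical, from 0) in each of the 24 libraries, with mean ± SD. At 4 h the 3 induced vehicle libraries, at 3038 to 3124, lie below all others, which span 3745 to 3948, and at 24 h the induced, PAIR1 and KIRA9 groups all lie below the uninduced one.

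The set of called IDs was small and moved with the analysis. Leaving out any 1 of the 6 libraries gave 28 to 40 calls, with between 28 and 35 of the 41 IDs still called. The direction of all 41 stayed the same. It could hardly have reversed, because the induced and uninduced libraries did not overlap for any of the 41. With only the 6 libraries fitted 27 IDs were called, 21 of them among the 41, and with DESeq2 70 were, including 38 of the 41.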

How the data were processed

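Per the labels' protocols, RNA was enriched on oligo dT beads before library preparation (NEBNext Ultra II). The authors deposited read counts per Ensembl gene ID, which were assumed to be raw, with no normalization. HISAT2 and HTSeq are named per the submitters' processing notes, with no version. The build, annotation and strand setting are not given in the sources used here. Every column was matched to a sample by its name and title.

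The filter filterByExpr (minimum count 10, 8 groups) left 13760 of 26689 IDs and dropped 12929. Counts were scaled by TMM and tested with edgeR 4.0.16 in R 4.3.3: 1 quasi-likelihood model with a mean per group over all 24 libraries, no replicate block, Benjamini-Hochberg over the IDs kept. The threshold for a call was an adjusted p of 0.05. A standard error is the size of the log2 change divided by the root of F, and intervals use the t quantile. The procedure was tested on simulated data.

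The printed IDs are, per direction, the 2 called ones that changed most among those whose higher group averaged 5 CPM or more and whose libraries did not overlap. The 21 gene lists drawn up could not be applied. Members, lists and alternatives were chosen with earlier results of these data known. Alternatives were the fitted libraries, filter, scaling, DESeq2 1.42.0, replicate block, threshold, left-out libraries and time label. Nothing says that replicates came from separate cultures, and p-values therefore cover the spread between these libraries alone, which may be technical. No replicate pair of the 6 libraries agreed within sampling noise. Chi-square per degree of freedom was 4.54 and 5.09 for the pairs without uninduced replicate 2 or induced replicate 3. It was 9.25 to 13.2 for the pairs with either of them.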

Additional observations from a re-analysis of the deposited data

Results flagged for a closer look

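The effect of induction differed between 4 h and 24 h for all 41 IDs called at 4 h in edgeR's test of that difference, in which 27.8% of all IDs were more negative and 22.5% more positive at 24 h. The induction effect at 24 h minus that at 4 h was -1.24 ± 0.08 (SE, log2) for ENSRNOG00000024578, 0.45 ± 0.07 for ENSRNOG00000012864, 0.46 ± 0.15 for ENSRNOG00000019434 (adjusted p = 0.015) and 4.94 ± 0.71 for ENSRNOG00000047573, which was the only lowered ID with a difference toward a higher value. Among the raised IDs, 4 differed toward a higher and 1 toward a lower value at 24 h. The 4 h libraries that chose the IDs enter these differences.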

How the results depend on the processing

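Under some settings counts differed by over 1.5 times from those reported, and the cause was not tested. Some of these settings use fewer libraries or a stricter threshold. With only the compared libraries fitted, 27 IDs were called, 23 lower, with 22 called in the same direction at 24 h and 24 with a different effect at 24 h. Without the filter on low counts 9 IDs were raised. DESeq2 called 70, 63 of them lower, with 65 in the same direction at 24 h, 69 with a different effect, and 53 and 54 of the lowered IDs higher with PAIR1 and KIRA9. With both libraries that share a block of IDs left out (induced replicate 3 and uninduced replicate 2), 21 were called, 3 higher and 18 lower, 19 in the same direction at 24 h and 21 with a different effect, and 13 and 16 lowered IDs were higher with PAIR1 and KIRA9. At an adjusted p below 0.01, 27 were called, 3 of them higher, 27 had a different effect and 17 lowered IDs were higher with PAIR1. With the time of the induced libraries taken from the conflicting label, 8700 were called, 4251 higher and 4449 lower, 1254 in the same direction at 24 h and 6970 with a different effect, 4070 and 4033 lowered IDs were higher with PAIR1 and KIRA9, and ENSRNOG00000047573 reversed to 0.14. Leaving out 1 library at a time gave 28 to 40 calls, 3 to 7 raised, 25 to 35 lowered, 27 to 37 in the same direction at 24 h, 28 to 39 with a different effect, and 19 to 25 and 21 to 30 lowered IDs higher with PAIR1 and KIRA9. DESeq2 size factors and library totals gave 43 and 47 calls, within 1.5 times of the 41. Shares of all IDs at 24 h and with PAIR1 or KIRA9 were not computed under these settings. The follow-up counts therefore have no background beside them. The induced libraries that chose each list also enter the comparisons with PAIR1 and KIRA9.

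ENSRNOG00000012864 and ENSRNOG00000024578 kept direction and call in all 15 alternatives, while ENSRNOG00000019434 lost its call in 11. The replicate block gave 45 calls, 39 of them shared with the 41, and the call of ENSRNOG00000019434 was lost (adjusted p = 0.052). Correlations of deviations from the group means, over 10665 IDs averaging at least 5 CPM, were 0.21, -0.40 and -0.34 for the same replicate number. The highest, 0.60, was between uninduced replicate 2 and induced replicate 3. Deviations within a group are tied to each other, so a high correlation for this pair pulls other values down. These values therefore cannot tell whether the numbers pair the samples.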

Other observations

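A block of 33 IDs, chosen after their values were seen because they were over 3 times higher in uninduced replicate 2 and induced replicate 3 than in the other 4 libraries at 4 h, held 0.610 and 0.687% of the counts of those libraries and 0.0403 to 0.0475% in the others. Deviations of uninduced replicate 2 and induced replicate 3 also had a correlation of 0.60 over 10665 IDs. The block need not be all that these 2 libraries share. They belong to opposite groups, and 0 of the 33 were among the 41 IDs called by edgeR (0.298% of all IDs tested). The way the 33 were chosen gives a wide spread within both groups. This made a call unlikely, so the 0 does not show whether the block affected the calls.

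A switch between no reads and reads was rare. Among all IDs, 1 had 0 reads in all 3 uninduced libraries and at least 3 in each induced one, and 2 IDs had the reverse, of 26689 in all.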
